A study of Rattus norvegicus with 2 samples.

Results

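The 9 genes described here encode the enzymes that turn squalene epoxide into lanosterol and then, step by step, into cholesterol: Lss, Cyp51, Tm7sf2, Msmo1, Nsdhl, Hsd17b7, Ebp, Sc5d and Dhcr7, given in pathway order. They were chosen by gene symbol, and all 9 of 9 were found among the 17049 genes of the authors' deposited expression table. The RNA came from primary cultures of oligodendrocyte precursor cells (OPCs), prepared from the brains of adult rats that were wild type (WT). OPCs are glia that can divide and can mature into the oligodendrocytes that wrap axons. The Aβ culture received 1 µM amyloid-β (Aβ), the peptide deposited in the plaques of Alzheimer's disease, and the exposure lasted 2 days. DMSO, a solvent, is the treatment label of the control culture; its protocol text repeats the Aβ exposure, so the group rests on that label. OGM medium, 37 °C and 5% CO2 were shared by both cultures. Each group is 1 library, and the labels used here do not give the form of Aβ or the number of animals behind it. No difference below therefore has a replicate check, no p-value of it is given, and every interval covers counting error only. The intervals may be too narrow even for that, because without molecular identifiers several reads can stem from a single molecule.

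Cholesterol is a main lipid of myelin, and brain cells make nearly all of their own because it hardly crosses the blood-brain barrier. Lanosterol synthase closes squalene epoxide into the sterol ring system, and the later enzymes strip methyl groups from the rings and shift or reduce their double bonds until cholesterol is left. The genes are known targets of SREBP-2, a transcription factor held in the endoplasmic reticulum while sterols are plentiful and released when they run low. In mouse OPC cultures, inhibitors of Cyp51, Tm7sf2 or Ebp are known to let sterol intermediates build up and to promote the formation of oligodendrocytes.

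The Aβ library held 15704932 estimated reads and the control library 15663751. TPM is a level corrected for gene length and library total. Of 10 OPC markers, Olig2 was at 336 TPM in the Aβ library and 375 TPM in the control library, and Pdgfra at 23.2 and 24.6 TPM. Sox10, another defining OPC factor, was near 0 at 0.84 and 1.22 TPM, on 22 and 33 reads. The OPC markers did not move one way: of the 9 measured, the counting interval of the read ratio, Aβ over control reads each scaled to its library total, lay above 1 for 2 and below 1 for 4, and Cspg4 had the highest ratio, 1.78 (1.54 to 2.05). Astrocyte markers were abundant as well, with 8 of 8 measured, a summed level of 2327 TPM in the Aβ library and 2336 TPM in the control library against 2917 and 3105 TPM for the OPC list, and Gfap at 328 and 368 TPM. Of these 8 the interval lay above 1 for 3, Aldoc highest at 1.17 (1.10 to 1.23), and below 1 for 4. Microglia markers summed to 213 TPM in the Aβ library and 254 TPM in the control library over 8 genes, with Aif1 at 46.7 and 61.7 TPM, and myelinating oligodendrocyte markers to 213 and 226 TPM over 8. Neuron markers summed to 133 and 129 TPM over 6 genes, fibroblast and pericyte markers to 3.85 and 7.01 TPM over the 5 found, and endothelial markers to 4.25 and 4.18 TPM over the 3 found. No marker found was listed at 0 in either library. Their part in the results below was not tested, and in such bulk RNA a change in the mix of cells and a change in RNA per cell cannot be told apart.

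All 9 enzyme genes were higher in the Aβ library than in the control library, by 1.18-fold to 1.37-fold in reads scaled to the library totals. The median of these read ratios was 1.31, against 1.00 over the 10586 genes with at least 200 reads summed over both libraries. The 95% counting interval of the read ratio lay above 1 for 9 of the 9 and below 1 for 0. Over the 10586 genes it lay above 1 for 13.1% and below 1 for 13.7%, and among the 8187 genes with 600 or more reads, which each of the 9 reached, it lay above 1 for 14.1%. No enzyme reached 2-fold by TPM, a size that 0.994% of the 12980 genes at 1 TPM or more passed in either direction. Read together, the 9 genes held 50567 reads with Aβ and 38992 in the control, a ratio of 1.29 (95% interval 1.28 to 1.31). Their share of all reads was 0.322% with Aβ and 0.249% in the control. The sum was not carried by its most abundant members alone, since the 7 genes other than Msmo1 and Cyp51 had 16173 and 12604 reads, a ratio of 1.28 (1.25 to 1.31).

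**Figure D1:**
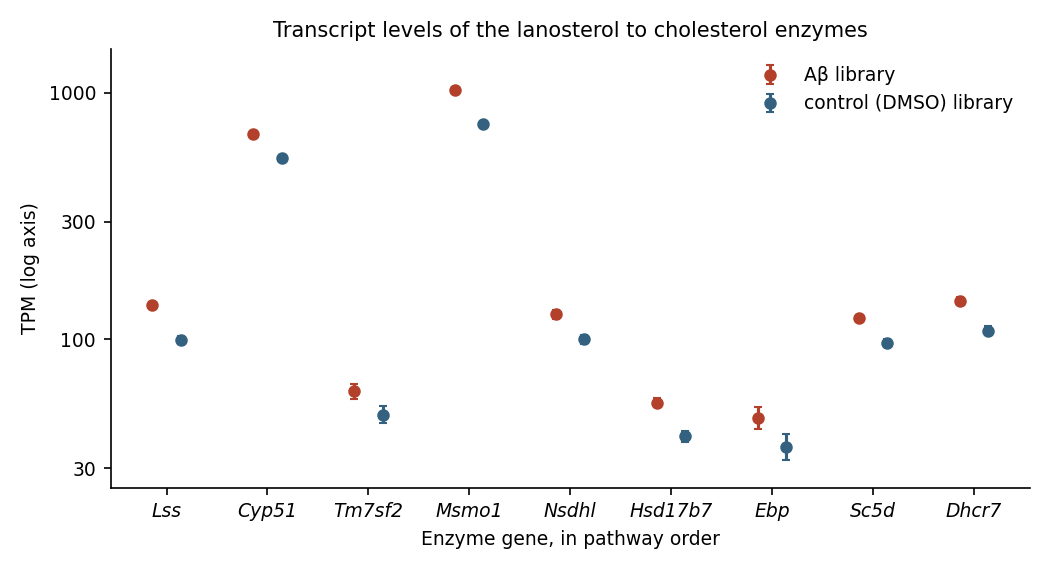
Level of each enzyme gene in TPM on a log axis, in pathway order, with the Aβ library left of the control library; points are single libraries and bars are 95% Poisson counting intervals. Msmo1 and Cyp51 lie far above the other 7 genes, and each gene is higher in the Aβ library.

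Lss, the lanosterol synthase (gene number 81681), was at 138 TPM in the Aβ library and 99.6 TPM in the control library, on 3668 and 2663 reads. Its read ratio was 1.37 (1.31 to 1.44). Only 1.52% of the 10586 genes had a ratio as high as that of Lss. Cyp51 (25427), the cytochrome P450 that takes the first methyl group off lanosterol, was at 682 TPM in the Aβ library and 543 TPM in the control library, on 19336 and 15461 reads, the largest numbers of reads among the 9. Its ratio of 1.25 (1.22 to 1.27) was therefore the most precise and lay below that of Lss. Tm7sf2 (293688) encodes the reductase that removes the double bond Cyp51 leaves behind, and it was at 61.6 TPM in the Aβ library and 49.5 TPM in the control library, on 747 and 599 reads. Its ratio of 1.24 (1.12 to 1.39) was close to that of Cyp51, the enzyme just before it.

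The next enzymes, Msmo1, Nsdhl and Hsd17b7, work in turn to take off the remaining pair of methyl groups. Msmo1 (140910), the oxidase of this set, was the most abundant of the 9, at 1025 TPM in the Aβ library and 744 TPM in the control library, on 15058 and 10927 reads. Its ratio by reads, 1.37 (1.34 to 1.41), was the highest, but level with that of Lss within counting error (Lss over Msmo1 1.00, 0.945 to 1.06). By TPM Lss was the higher, at 1.383 against 1.378. Of the 583 TPM by which the 9 genes together were higher, 48.3% came from Msmo1, with a further 23.9% from Cyp51. Nsdhl (309262), the dehydrogenase that removes the oxidized carbon, was at 126 TPM in the Aβ library and 99.9 TPM in the control library, on 2340 and 1872 reads. The ratio of Nsdhl was 1.25 (1.17 to 1.33). Hsd17b7 (29540) reduces the ketone that Nsdhl leaves, and it was at 55.4 TPM in the Aβ library and 40.5 TPM in the control library, on 1851 and 1363 reads. Hsd17b7 had a ratio of 1.35 (1.26 to 1.45), close to that of Msmo1, while Nsdhl between them in the pathway was lower than Msmo1 by more than counting error (Msmo1 over Nsdhl 1.10, 1.03 to 1.18) but not by the interval widened for all pairs (0.990 to 1.23).

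Ebp, Sc5d and Dhcr7 then rearrange the double bonds of the ring. Ebp (117278), the sterol isomerase and the least abundant of the 9, was at 48.1 TPM in the Aβ library and 36.7 TPM in the control library, on 378 and 287 reads. Its ratio of 1.31 (1.12 to 1.54) had the widest interval of the 9. Sc5d (114100), a desaturase, was at 122 TPM in the Aβ library and 96.6 TPM in the control library, on 4000 and 3391 reads. Its ratio by reads was the lowest of the 9, at 1.18 (1.12 to 1.23), yet only 7.31% of the 10586 genes had a ratio as high. Dhcr7 (64191), the reductase whose loss causes Smith-Lemli-Opitz syndrome in humans, was at 143 TPM in the Aβ library and 109 TPM in the control library, on 3189 and 2429 reads. The ratio of Dhcr7 was 1.31 (1.24 to 1.38), the median of the set.

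**Figure D2:**
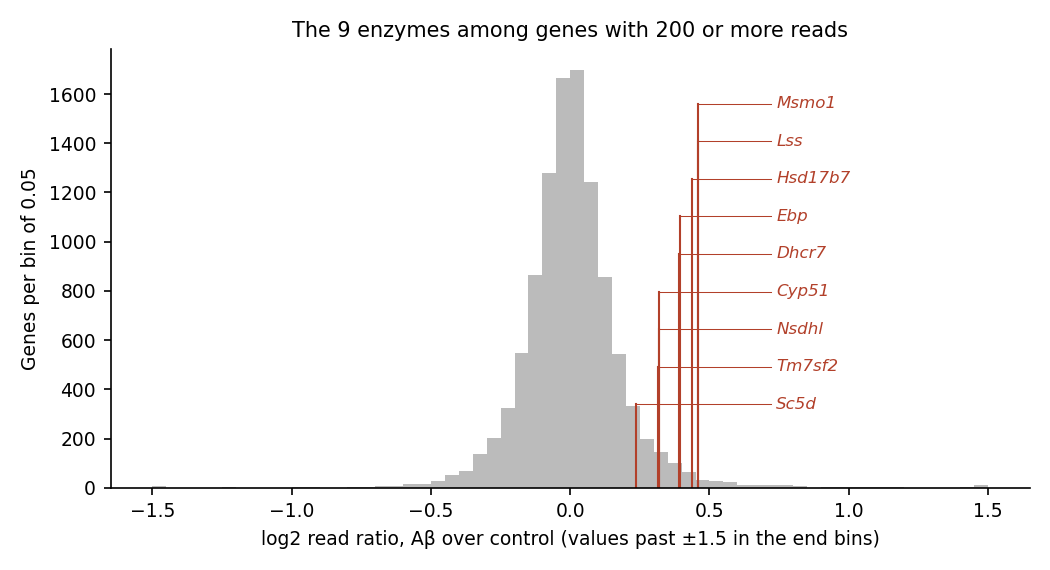
Histogram of the log2 read ratio, Aβ over control, of the 10586 genes with 200 or more reads, with a red line at each enzyme gene. The genes centre on 0, and the 9 enzymes lie to the right, from 0.23 for Sc5d to 0.46 for Lss and Msmo1.

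The order of levels was nearly the same in both libraries. In the Aβ library it ran Msmo1, Cyp51, Dhcr7, Lss, Nsdhl, Sc5d, Tm7sf2, Hsd17b7 and Ebp, and in the control library Nsdhl stood just above Lss, at 99.86 and 99.64 TPM. Msmo1 was at 21.3 times the TPM of Ebp with Aβ and 20.3 times in the control, and Msmo1 with Cyp51 made up 71.1% of the summed TPM with Aβ and 70.8% in the control. In the Aβ library the counting intervals of the levels overlapped for Dhcr7 and Lss, Nsdhl and Sc5d, Tm7sf2 and Hsd17b7, and Hsd17b7 and Ebp. In the control library those of the neighbours from Dhcr7 to Sc5d overlapped, as did those of Hsd17b7 and Ebp, but not those of Tm7sf2 and Hsd17b7. Such overlap is no test of a difference between genes, and none was made.

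The read ratios of the 9 genes were not all alike within counting error. Of the 36 pairs among the 9, the ratio of the read ratios differed from 1 beyond counting error in 10, and in 5 when the interval was widened for 36 pairs. Those 5 were Lss and Cyp51, Lss and Sc5d, Msmo1 and Cyp51, Msmo1 and Sc5d, and Hsd17b7 and Sc5d. The ratio of Msmo1 over that of Sc5d was 1.17 (1.11 to 1.23, or 1.07 to 1.27 widened), and that of Cyp51 over Msmo1 was 0.908 (0.878 to 0.938, or 0.861 to 0.957 widened). Tm7sf2 and Ebp, the genes with the fewest reads, were in none of the 10 pairs, which at their depth does not show that they moved like the rest. The share of pairs apart among other genes was not computed, so these counts are not shown to be particular to the 9. Single genes often differed from 1 beyond counting error. Of the 10586 genes with 200 or more reads, the interval lay above 1 for 13.1% and below 1 for 13.7%.

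Sc5d was also the enzyme whose value depended on the unit. By TPM its ratio was 1.26, level with 1.26 for Cyp51 and Nsdhl and 1.24 for Tm7sf2, the lowest by TPM. TPM divides reads by a gene length, and the deposited values imply for Sc5d a length 5.98% lower in the Aβ library than in the control library, relative to the median gene. A shift in this direction as large as that of Sc5d was seen in 1.26% of the 10586 genes. For the other 8 enzymes the TPM ratio divided by the read ratio lay between 0.992 and 1.01 of the median gene's. With TPM ratios in place of reads, 8 of the 36 pairs differed beyond counting error, and 3 with the widened interval, of which 1 held Sc5d.

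**Figure D3:**
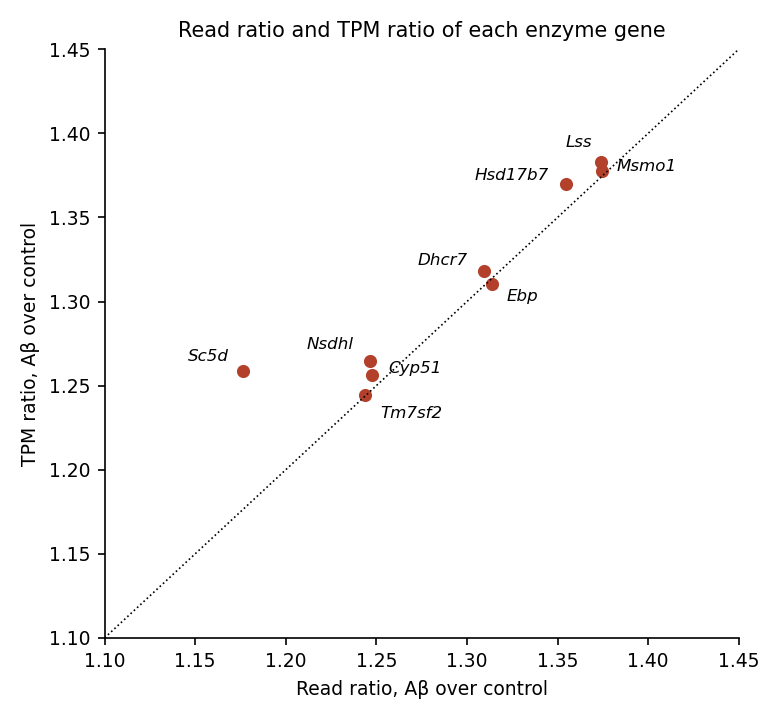
TPM ratio against read ratio, Aβ over control, for each of the 9 enzyme genes; the dotted line marks equal values. Sc5d lies above the line, at 1.26 by TPM and 1.18 by reads, while the other 8 lie close to it.

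The enzymes before squalene epoxide shifted by about the same factor. All 10 genes of the list from acetyl-CoA to squalene epoxide had a counting interval above 1, with a median read ratio of 1.28 and a range from 1.13 for Acat2, whose reads were not whole numbers, to 1.49 for Idi1, the isopentenyl diphosphate isomerase. Hmgcs1, the synthase near the start, was at 1153 TPM in the Aβ library and 887 TPM in the control library, a read ratio of 1.29 (1.27 to 1.31). Sqle, which makes squalene epoxide, had a ratio of 1.17 (1.12 to 1.22), near that of Sc5d. The ratio of the 9 enzymes' summed reads over that of these 10 was 1.00 (0.986 to 1.02). Hmgcs1 had by far the most reads of the 10, 36242 with Aβ and 28042 in the control. Fdps, the next, had 9151 and 7058, so the sum of the 10 leans on Hmgcs1.

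Proteins that work beside the 9 enzymes mostly lay near equality. Of 12 such partners and relatives, the interval lay above 1 for 3, among them Erg28 and Tmem97, and below 1 for 0, with a median read ratio of 1.02. Lbr, the nuclear envelope protein that shares the reductase activity of Tm7sf2, was at 30.6 TPM in the Aβ library and 32.8 TPM in the control library, on 422 and 452 reads. Lbr had a ratio of 0.931 (0.814 to 1.07), and that of Tm7sf2 was 1.34 times as high (1.12 to 1.59). Ebpl, the relative of Ebp, had 192 and 189 reads and a ratio of 1.01 (0.825 to 1.25), and the ratio of Ebp over it, 1.30, had an interval that reached 1 (0.999 to 1.68).

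Several of the enzymes draw electrons from shared carriers, and these did not differ beyond counting error. Por, which passes electrons to Cyp51, was at 103 TPM in the Aβ library and 100.05 TPM in the control library, a read ratio of 1.02 (0.962 to 1.08), and the ratio of Cyp51 was 1.22 times as high (1.15 to 1.30). The cytochrome b5 genes Cyb5a and Cyb5b had ratios of 1.02 (0.858 to 1.21) and 0.994 (0.930 to 1.06), and their reductase Cyb5r3 one of 0.996 (0.932 to 1.06). Pgrmc1, a haem-binding partner of cytochromes P450, was at 0.961 (0.906 to 1.02). Faxdc2, a little expressed relative of the desaturases, had 2.25 TPM in the Aβ library and 2.29 TPM in the control library.

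The partner with the highest ratio was Erg28. In yeast its product tethers the enzymes that remove the paired methyl groups, the counterparts of Msmo1, Nsdhl and Hsd17b7. The deposited table lists it under an older symbol, and it was matched by its gene number, 299207. Erg28 was at 55.0 TPM in the Aβ library and 37.2 TPM in the control library, on 709 and 478 reads. Its read ratio of 1.48 (1.32 to 1.66) was 1.14 times that of the 9 enzymes summed (1.02 to 1.29) and 1.19 times that of Nsdhl (1.04 to 1.36), while against Msmo1 (1.08, 0.955 to 1.21) and Hsd17b7 (1.09, 0.952 to 1.25) the interval included 1. Erg28 was singled out here as the highest of 12 genes, and these intervals were not widened for that choice. Tmem97, a membrane protein of the same fold as Ebp, had a ratio of 1.07 (1.00 to 1.14), and that of the 9 enzymes summed was 1.21 times as high (1.13 to 1.29).

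**Figure D4:**
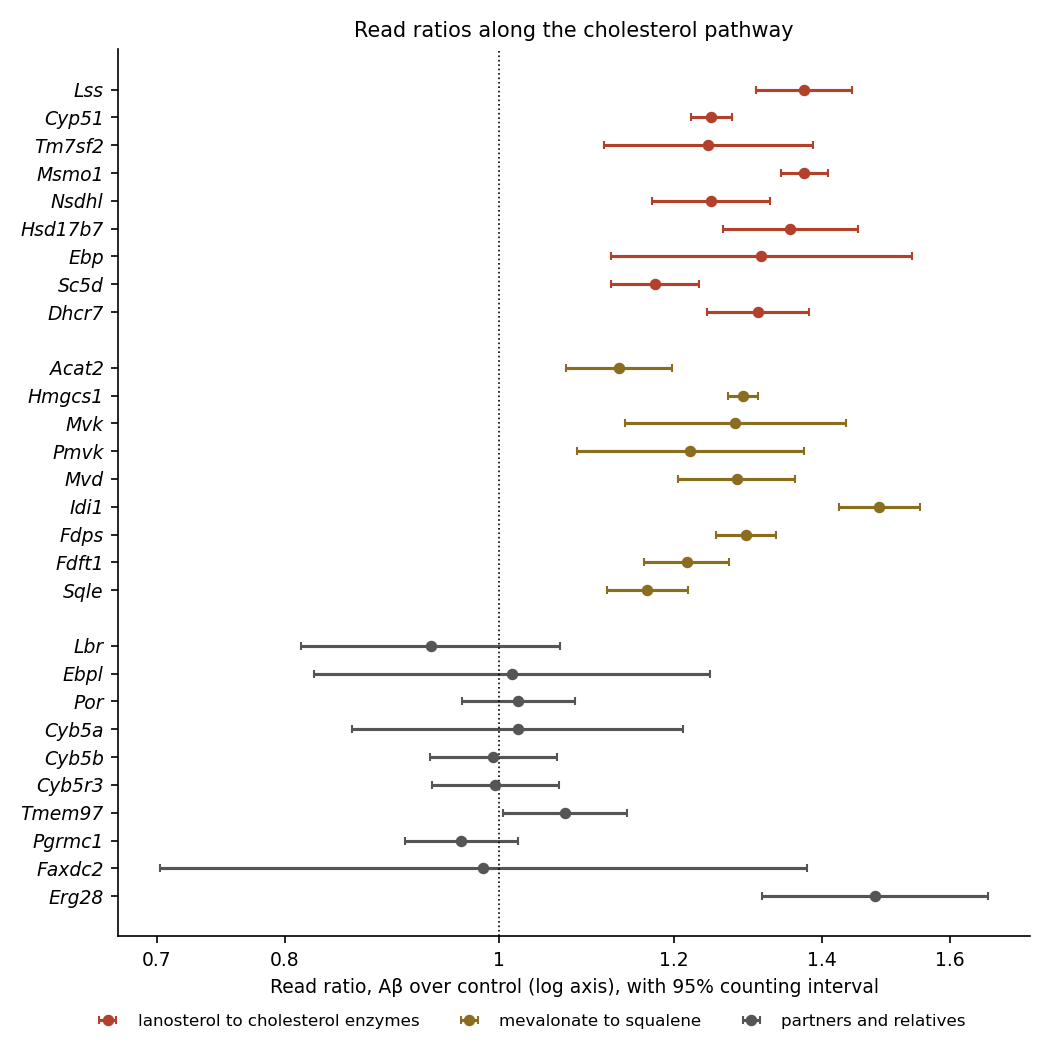
Read ratio, Aβ over control, on a log axis with 95% counting intervals, for the 9 enzymes in pathway order (red), 9 of the 10 genes before them (ochre) and 10 of the 12 partners and relatives (grey); each point compares 2 libraries. All red and ochre intervals drawn lie above 1, while of the grey ones drawn only Erg28 and Tmem97 do.

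Genes that sense sterol were split. Insig1, which holds SREBPs back and is itself a target of theirs, had a ratio of 1.30 (1.25 to 1.36), within the range of the 9 enzymes. Srebf2, which encodes SREBP-2, was at 108 TPM in the Aβ library and 103 TPM in the control library, a ratio of 1.04 (1.00 to 1.08), and its escort Scap was at 1.02 (0.967 to 1.07).

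The authors' deposited table of gene ontology terms for genes higher with Aβ, which was deposited with these libraries and is no independent evidence, named 8 of the 9 enzymes. Sc5d was named in 0 of its 282 terms, and so were Sqle and Acat2. In the authors' deposited table, 8 of the 9 appeared side by side in 13 terms, led by cholesterol biosynthetic process, with 17 of the 391 listed genes against 51 of 13666 background genes, a fold enrichment of 11.7 and an adjusted p of 5.26e-11. The lowest read ratio among the 216 genes with 200 or more reads that the authors' deposited table names was 1.19, for Inpp5a, against 1.18 for Sc5d.

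The promoters of the 9 genes were compared because the genes were all higher together. RefSeq windows of the GRCr8 build, 300 bases long from 250 before the annotated transcript start to 50 after it, were found for all 9, which lie on chromosomes 1, 4, 8, 13, 16, 20 and X. CCAAT, the motif of NF-Y, a factor known to act beside SREBPs, was present on either strand in 7 of the 9 windows, against 37.5% of all 33469 windows and 38.2% of the 9673 windows of genes with 200 or more reads. At least 2 matches were found in 5 of 9, against 14.2% of the windows of genes with 200 or more reads, and at least 3 in 3 of 9, against 4.93%. Of the 17 matches, 13 lay on the strand opposite to the gene, a share that was not computed for other windows. The windows of Cyp51 and Dhcr7 held none, and both genes were nonetheless higher with Aβ. GGGCGG, the GC box bound by Sp1, was present in 8 of 9 windows, against 63.5% of the windows of genes with 200 or more reads. TCACNCCAC, a form of the sterol regulatory element, was present in 0 of 9 windows and 1.13% of the windows of genes with 200 or more reads. The matches were not particular to the 9 enzymes or to genes that were higher: CCAAT was present in 5 of the 6 windows found for the mevalonate genes, with 5 matches in that of Mvk, and Lbr, whose read ratio was 0.931, had 2 CCAAT and 3 GGGCGG matches. These letters are matches in a short window and say nothing of binding.

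Among the 9, the windows with at least 3 CCAAT matches belong to Msmo1, Nsdhl and Hsd17b7, the 3 enzymes that act in turn on the paired methyl groups, with 3, 5 and 3 matches. No such grouping was fixed beforehand, and a link between the number of matches and the read ratio was not tested. These 3 windows are shown beside that of Cyp51, which has none, each 5′ to 3′ on the strand of the gene, with CCAAT or its reverse complement in capitals. The Msmo1 window is chr16:29746863-29747162 on the plus strand, that of Nsdhl chrX:155817110-155817409 on the plus strand, that of Hsd17b7 chr13:84722705-84723004 on the minus strand and that of Cyp51 chr4:30991443-30991742 on the plus strand.
Msmo1: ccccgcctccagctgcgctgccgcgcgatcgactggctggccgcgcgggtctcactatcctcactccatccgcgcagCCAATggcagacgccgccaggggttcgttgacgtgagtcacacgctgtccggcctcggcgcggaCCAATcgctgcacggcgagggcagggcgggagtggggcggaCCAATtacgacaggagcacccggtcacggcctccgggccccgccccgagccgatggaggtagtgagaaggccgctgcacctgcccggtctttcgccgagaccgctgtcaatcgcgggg
Nsdhl: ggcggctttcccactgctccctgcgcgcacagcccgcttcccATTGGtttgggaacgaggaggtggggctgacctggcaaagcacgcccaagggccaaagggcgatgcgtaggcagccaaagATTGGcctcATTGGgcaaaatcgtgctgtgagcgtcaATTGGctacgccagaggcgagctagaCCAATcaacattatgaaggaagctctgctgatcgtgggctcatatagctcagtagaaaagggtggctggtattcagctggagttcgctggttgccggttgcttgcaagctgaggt
Hsd17b7: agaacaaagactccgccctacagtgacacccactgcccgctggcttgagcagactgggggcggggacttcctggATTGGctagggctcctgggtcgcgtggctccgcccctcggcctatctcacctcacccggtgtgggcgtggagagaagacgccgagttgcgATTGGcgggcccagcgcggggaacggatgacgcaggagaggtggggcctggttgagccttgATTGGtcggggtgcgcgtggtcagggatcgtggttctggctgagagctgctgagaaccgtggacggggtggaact
Cyp51: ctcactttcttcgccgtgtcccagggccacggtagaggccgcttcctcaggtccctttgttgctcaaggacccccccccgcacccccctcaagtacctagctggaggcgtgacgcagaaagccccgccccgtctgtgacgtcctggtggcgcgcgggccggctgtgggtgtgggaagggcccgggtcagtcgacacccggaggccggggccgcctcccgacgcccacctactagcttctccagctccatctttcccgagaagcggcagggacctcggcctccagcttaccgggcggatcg

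**Figure D5:**
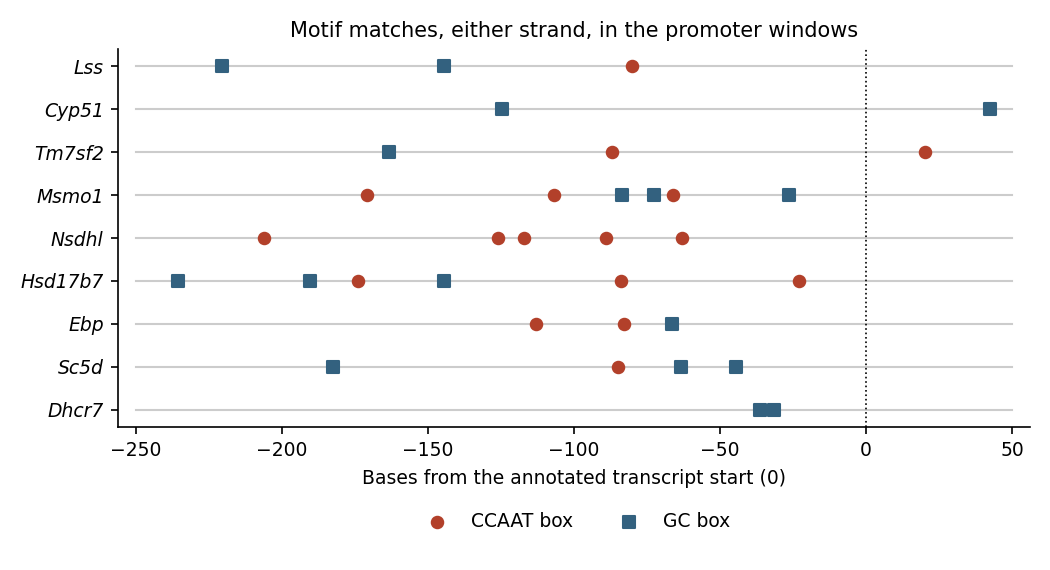
Position of each motif match, on either strand, in bases from the annotated transcript start for the 9 enzyme genes; circles are CCAAT boxes and squares are GC boxes. In the 7 genes with a CCAAT box, at least 1 lies between 130 and 60 bases before the start. This span was chosen after the positions were seen, and the share of other windows with a match in it was not computed.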

How the data were processed

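Each group is 1 library, made from 1 µg of total RNA per the labels. The submitters' processing notes list Bowtie2 and the Rnor_6.0 build. Neither the aligner version nor the counter or gene annotation is given in these sources. Per the file headers, the authors' deposited expression table gives estimated counts of reads, TPM and FPKM for each gene; FPKM was not used. A further deposited pair of columns equals the read count rounded up and was treated as a score and left out. Their deposited enrichment table holds, per the file headers, a count of genes, a fold enrichment ratio, a fraction of each term's genes, p-values and a z score per term.

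A read ratio divides the Aβ by the control reads, each scaled to its library total. Its 95% interval is the exact Clopper-Pearson one of the Aβ share of both libraries' reads, rounded to whole numbers. Ratios between genes have exact conditional intervals of the odds ratio. TPM ratios on the log2 scale used a pseudocount of 1. Levels have Poisson intervals. No count model was fitted with 1 library per group. All 9 enzyme genes have whole read numbers in both libraries, whereas 13.4% of all genes do not; RefSeq lists pseudogene copies of Cyp51 and Nsdhl, and reads shared with them were not checked. Scaling alternatives used edgeR 4.0.16 and DESeq2 1.42.0. Other steps used Python 3.11.15 and SciPy 1.17.1. The code for the read ratio intervals was run on simulated Poisson counts, which hold no variation between cultures and so say nothing of it.

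The enzymes, the lists and the motifs were chosen with earlier results of these data known, and the span of positions in the promoter plot after its values were seen. Named genes are the 9 enzymes, the list genes with the highest and lowest read ratio, further list genes by their role, and Pdgfra, Olig2, Gfap and Aif1; Sox10, Cspg4 and Aldoc were added after their values were seen. With 2 libraries no likeness between expression patterns can be measured. Some genes of the lists count in the totals but are not reported here by name.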

Additional observations from a re-analysis of the deposited data

How the results depend on the processing

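The call of a read ratio above 1 and its direction held for each of the 9 enzymes under 4 alternatives: edgeR's TMM factors, DESeq2's size factors, totals without the 10 most abundant genes, and TPM ratios. The lowest counting bound over these was 1.11, and the median log2 read ratio of the 9, 0.39, was 0.39 in each. The TMM factors, the size factors and the reduced totals moved every log2 ratio by only 0.00015, 0.0038 and -0.0016. Shifts that small could not have changed a call, so that part of the agreement was fixed in advance. With pseudocounts of 0.1 and 5 or with CPM the median log2 TPM ratio ran from 0.35 to 0.39, and no enzyme reached 2-fold. The number of pairs of enzymes apart by the interval widened for 36 pairs was 5 by reads and 3 by TPM, an alternative chosen after seeing the data; both pairs lost by TPM hold Sc5d. Genes with an interval above 1 numbered 1383 with 200 or more reads, 1609 with no minimum and 1167 among whole read numbers. No paired analysis was possible because each group has 1 library, and for the same reason no library could be left out. Among the 9 enzymes, depth limits Ebp and Tm7sf2 most, and a 2-library comparison cannot show how cultures of the same group vary.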

Other observations

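Of the genes on sterol sensing and efflux, 4 with a read ratio below 1 are given here, chosen after their values were seen; they are no fixed list, and no test of them as a group was made. Srebf1, whose reads were not whole numbers, was at 0.766 (0.718 to 0.818). The sterol exporter Abca1 had 474 reads with Aβ and 555 in the control, a ratio of 0.852 (0.752 to 0.965). By TPM the difference of Abca1 was smaller, with 4.88 TPM in the Aβ library and 5.21 TPM in the control library, a log2 TPM ratio of -0.079. Its TPM ratio divided by its read ratio was 1.09 of the median gene's, so its value depended on the unit. The exporter Abcg1 had 17 and 33 reads (0.514, 0.268 to 0.949), and Mylip, a ubiquitin ligase, had 26 and 38 reads (0.682, 0.398 to 1.15), so both rest on few reads. The liver X receptor (LXR) genes, which encode sensors of oxidized sterols, had ratios above 1, with Nr1h2 at 1.12 (1.00 to 1.24) and Nr1h3, on few reads, at 1.21 (0.882 to 1.67), and Apoe was at 1071 and 1047 TPM (1.03, 0.999 to 1.06).

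The list of LXR, efflux and storage genes as a whole had 11 measured members, 3 with an interval above 1 and 1 below, and a median log2 TPM ratio of 0.16. In that list Stard4, a sterol carrier known as an SREBP-2 target, had a ratio of 1.27 (1.20 to 1.34), within the range of the 9 enzymes. The list of SREBP control and uptake genes had 9 measured members, 4 with an interval above 1 and 1 below, and a median log2 TPM ratio of 0.04.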
